A study of Homo sapiens with 8 samples.

Results

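The genes described here are noncoding genes taken as hosts of small RNAs, either small nucleolar RNAs (snoRNAs) or microRNAs. They were chosen by symbol, as the numbered SNHG genes other than SNHG14, the genes named MIR followed by HG, and GAS5, ZFAS1, DANCR, EPB41L4A-AS1 and CYTOR, with at least 50 raw counts summed over all 8 libraries. Of 99 genes with such a symbol, 58 reached that sum, out of 60196 symbols in the tables. These 58 members were 23 SNHG genes, 30 MIR host genes and the 5 genes given by name. SNHG25, with 55 counts in all, was the member closest to the minimum, and MIR29B2CHG, with 45, was the closest gene below it. The summed count is the only measured value in that rule, and it is not a difference between P-body and cytosol. The rule itself was set with earlier results of these data known, so the members were not a blind choice. In all, 39 members reached 50 counts in each line alone, 10 in HEL only, 7 in MOLM-13 only and 2 over both lines together.

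A snoRNA host gene is transcribed and spliced like a messenger RNA, and its snoRNAs are cut out of the excised introns. The snoRNAs then guide the chemical modification of ribosomal RNA in the nucleolus, while the spliced host transcript is exported, can meet ribosomes and is often a target of nonsense-mediated decay. A microRNA host transcript is cut in the nucleus by Drosha into microRNA hairpins, so the spliced RNA that reaches the cytoplasm is a by-product or a separate isoform. P-bodies are cytoplasmic granules that hold messenger RNAs outside active translation, together with decapping enzymes, translational repressors and parts of the microRNA silencing machinery.

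RNA of P-body preparations and of the cytosolic fraction was sequenced from 2 human acute myeloid leukaemia cell lines, HEL, an erythroleukaemia line, and MOLM-13, a line of monocytic character. There were 2 libraries in each of 4 groups, MOLM-13 P-body, MOLM-13 cytosol, HEL P-body and HEL cytosol, with no genetic change or treatment named in the labels. The titles say "cyto", which was read as cytosol, and the sources used here do not give the P-body isolation. Each line is a single cell line and nothing says that its replicates were grown separately, so the p-values rest on a spread between libraries that could be technical only. Total counts ran from 9868469 to 11000536 in MOLM-13 P-body and from 5897625 to 7098927 in MOLM-13 cytosol libraries, and from 17058567 to 18071473 in HEL P-body and from 13153551 to 15569634 in HEL cytosol libraries. Erythroid and megakaryocytic markers summed to between 104 and 132 CPM, counts scaled to the depth of their library, in MOLM-13 libraries and to between 2005 and 3189 CPM in HEL libraries. Monocytic and granulocytic markers summed to between 2049 and 2942 CPM in MOLM-13 libraries and to between 71.1 and 107 CPM in HEL libraries. Each line was thus higher for its own list. In MOLM-13 cytosol the largest were AZU1, at 1358 and 1205 CPM, and MPO, at 989 and 931 CPM. Over the MOLM-13 libraries LYZ ran from 144 to 195 CPM and MNDA from 108 to 296 CPM. CD14 ran there from 1.65 to 3.08 CPM and CD68 from 0 to 0.529 CPM. Within each line its own list was lower in P-bodies, with 2049 and 2083 CPM in MOLM-13 P-body libraries against 2942 and 2766 CPM in cytosol, and 2064 and 2005 CPM in HEL P-body libraries against 3058 and 3189 CPM in cytosol, and the part of this in the members' changes was not tested. Lymphoid markers summed to 34.5 to 37.5 CPM in MOLM-13 and to 2.30 to 3.16 CPM in HEL.

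By RefSeq gene spans, 28 members enclosed a snoRNA or small Cajal body RNA gene, 32 enclosed a microRNA gene, 3 of these enclosed both, and CYTOR enclosed neither. A member called a host here encloses a small RNA gene by position, without regard to strand or intron. For example, MIR5583-1 lies on the plus strand within MIR924HG, which is on the minus strand. Few counts were given to the small RNA genes themselves. The counting tool is not given, so reads of a small RNA within host exons could have been counted for the host, which was not tested. Of 63 enclosed snoRNA genes, 46 were found in the tables, 35 of these had no count in any library, and all 46 together had 330 counts. SNORD12C in ZFAS1 had 112 of those counts and SNORA73B in SNHG3 had 91. All 53 enclosed microRNA genes together had 22 counts. No statement about mature snoRNAs or microRNAs can be drawn from these libraries. The sources used here do not give the strand setting of the counting, so reads of genes that overlap on opposite strands cannot be told apart. GENCODE release 29 places an exon of another gene on the opposite strand of 23 members and on the same strand of 10.

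In MOLM-13, 28 of 49 tested members were lower in P-bodies than in cytosol and 3 were higher. In HEL, 8 of 52 tested members were lower and 17 were higher, a split that turned to 16 lower and 5 higher when libraries were scaled by their totals. Lower calls in MOLM-13 made up 57.1% of tested members, against 28.5% of all tested genes, and higher calls 6.12%, against 32.4% of all genes. For HEL, higher calls made up 32.7% of members, close to the 27.5% of all genes, and lower calls made up 15.4%, against 27.1%. The median log2 change of members was -0.46 in MOLM-13 and 0.10 in HEL, beside -0.04 and -0.06 over all genes. A call means an adjusted p below 0.05 in edgeR's quasi-likelihood test over all genes of that line, and each log2 change is P-body over cytosol on counts scaled by the trimmed mean of M-values (TMM). No spike-in was used here, so each change is set against most other genes of those libraries and gives no amount of RNA. Scaling by library totals moved the median of all genes to -0.47 in MOLM-13 and to -0.39 in HEL, and the median of members to -0.90 and -0.22. The share of all counts held by members was 0.188% and 0.186% in the MOLM-13 P-body libraries, against 0.326% and 0.322% in cytosol. In HEL that share was 0.0981% and 0.107% in P-body libraries, against 0.114% and 0.108% in cytosol, so both HEL P-body libraries lay just below both cytosol libraries. In TMM-scaled CPM the HEL members summed to 1110 and 1183 in P-body libraries, against 1017 and 966 in cytosol, the other way round. Single libraries moved the HEL counts: 3 members were lower without HEL P-body replicate 2, and 9 were higher and 5 lower without HEL cytosol replicate 2.

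**Figure D1:**
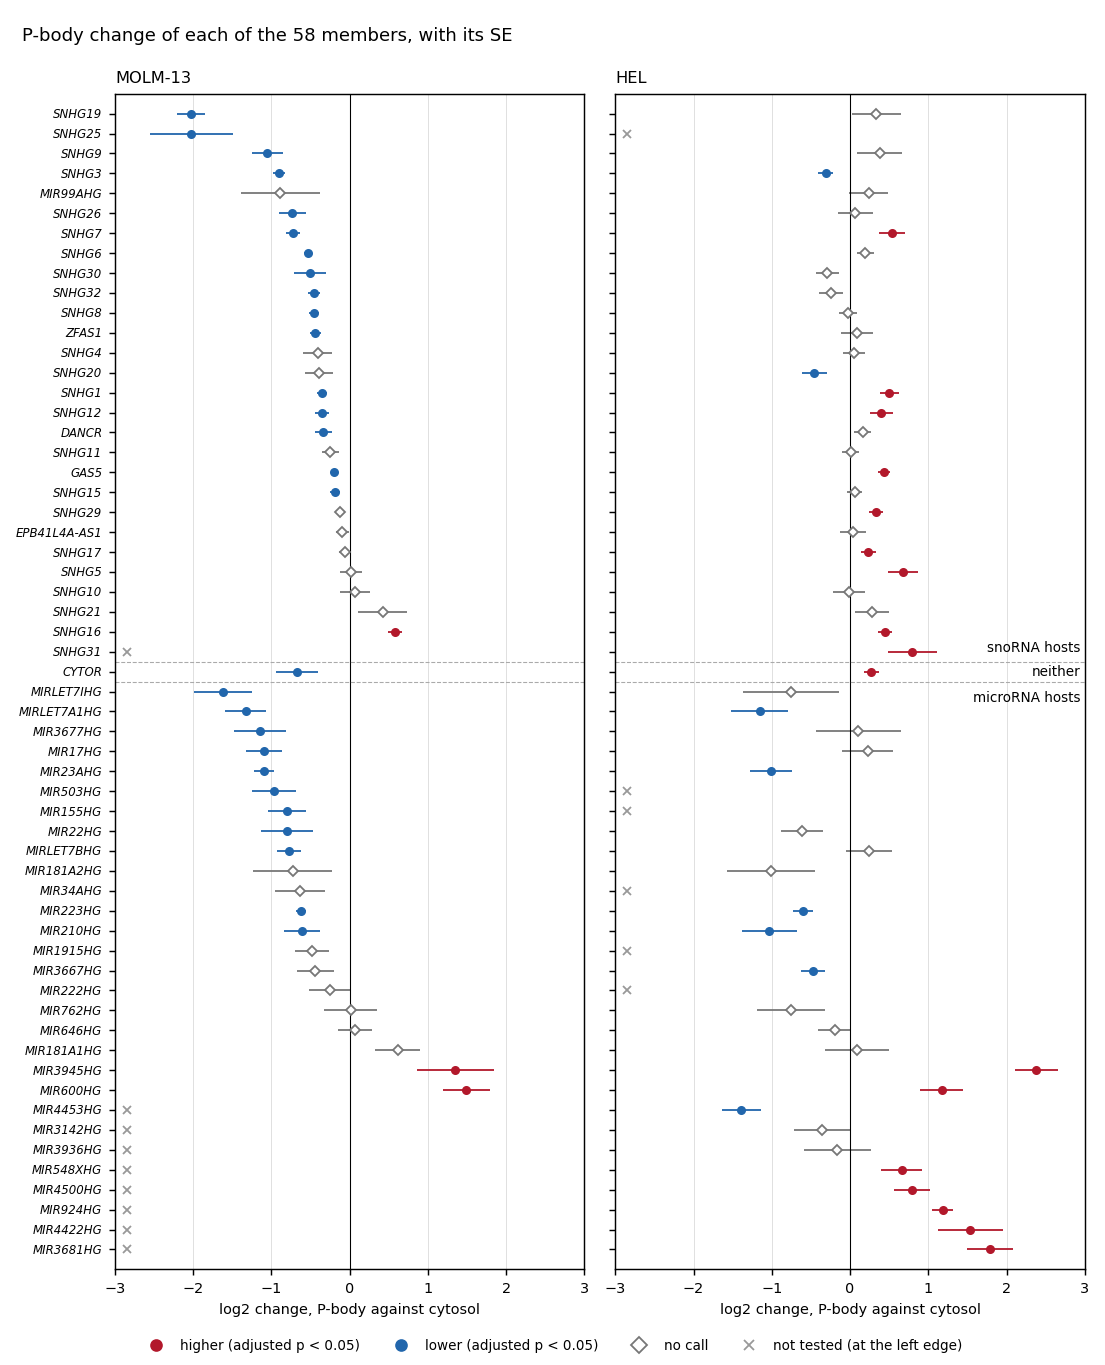
The log2 change of P-body against cytosol is drawn for each of the 58 members, with MOLM-13 on the left and HEL on the right, and the bar is its standard error. Filled circles are called at an adjusted p below 0.05 (red higher, blue lower), open diamonds are not called, and crosses at the left edge mark members with too few counts to be tested. In MOLM-13, 28 members are lower and 3 higher, and in HEL, 8 are lower and 17 higher (16 and 5 with scaling by library totals).

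Filters on low counts left out 6 members in HEL and 9 in MOLM-13, mainly genes expressed in the other line. All 58 had enough counts for the fit of all 8 libraries. Per kilobase of merged exons, snoRNA hosts were the more abundant kind. Their median level was 10.9 CPM per kb in MOLM-13 P-bodies and 14 in MOLM-13 cytosol, and 6.61 in HEL P-bodies and 5.97 in HEL cytosol. The 29 microRNA hosts without a snoRNA had medians of 1.15 CPM per kb in MOLM-13 P-bodies and 1.37 in MOLM-13 cytosol, and of 0.623 in HEL P-bodies and 0.580 in HEL cytosol. SNHG6 had the highest level of all members in MOLM-13, at 315 CPM per kb in P-bodies and 455 in cytosol. GAS5 led in HEL P-bodies at 61.4 CPM per kb, and SNHG8 led in HEL cytosol at 49.8, followed by SNHG6 at 49.1 and GAS5 at 45.5.

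GAS5, on the minus strand of chromosome 1 between 173863900 and 173868882 (GRCh38), encloses 11 snoRNA genes and gave the most counts of all members. Its transcript is a known target of nonsense-mediated decay that builds up when growth stops. MOLM-13 P-body libraries held 492 and 491 CPM of GAS5, against 581 and 547 CPM in cytosol. HEL P-body libraries held 214 and 232 CPM, against 171 and 160 CPM in cytosol. The fractions did not overlap in either line, and they lay in opposite order. GAS5 fell by 0.20 ± 0.05 (SE) on the log2 scale in MOLM-13 P-bodies (edgeR adjusted p = 0.000481) and rose by 0.43 ± 0.08 in HEL P-bodies (adjusted p = 0.000231). The HEL rise ended when the trend of log2 changes on GC content and length was removed, at -0.012, and shrank to 0.11 without a call when libraries were scaled by their totals.

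SNHG1, SNHG12 and SNHG7 moved in opposite directions in the lines in the same way. SNHG1, long known as the host of the U22 snoRNA, encloses 8 snoRNA genes on chromosome 11. It was at 90.5 and 90.2 CPM in MOLM-13 P-bodies, against 115 and 116 CPM in cytosol, and at 36.9 and 32.4 CPM in HEL P-bodies, against 25.0 and 23.9 CPM in cytosol. The log2 change was -0.35 ± 0.07 (SE) in MOLM-13 and 0.50 ± 0.12 in HEL. SNHG12, which encloses 4 snoRNA genes on chromosome 1, was at 42.0 and 46.5 CPM in MOLM-13 P-bodies, against 57.6 and 55.2 CPM in cytosol. HEL had 15.0 and 14.7 CPM of SNHG12 in P-bodies, against 11.7 and 10.8 CPM in cytosol, and the log2 changes were -0.35 ± 0.09 and 0.40 ± 0.14. For each of these genes both P-body libraries lay on the same side of both cytosol libraries within a line.

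SNHG7, host of SNORA17A and SNORA17B on chromosome 9, had 32.3 and 31.3 CPM in MOLM-13 P-bodies, against 50.1 and 54.5 CPM in cytosol. In HEL it had 11.3 and 14 CPM in P-bodies, against 8.13 and 9.21 CPM in cytosol. Its log2 change was -0.73 ± 0.10 (SE) in MOLM-13 and 0.54 ± 0.17 in HEL, and the MOLM-13 value shrank to -0.17 without a call when the GC and length trend was removed. With library totals no snoRNA host was called higher in HEL, so the HEL calls of SNHG1, SNHG12 and SNHG7 were lost. The HEL call of SNHG12 was also lost without HEL P-body replicate 1 (0.39) or HEL cytosol replicate 2 (0.34), and that of SNHG7 without HEL cytosol replicate 1 (0.45). SNHG7 overlaps DIPK1B on the opposite strand, whose changes were -2.39 in MOLM-13 and -1.08 in HEL, so SNHG7 and its neighbour were both lower in MOLM-13 P-bodies and moved in opposite directions in HEL. CYTOR, which encloses no small RNA gene, was the other member called in both directions. It was at 3.28 and 3.54 CPM in MOLM-13 P-bodies, against 6.31 and 4.69 CPM in cytosol, and at 64.2 and 71.6 CPM in HEL P-bodies, against 55.6 and 56.7 CPM in cytosol. The log2 changes were -0.68 ± 0.27 in MOLM-13 and 0.27 ± 0.09 in HEL. The MOLM-13 call was lost without P-body replicate 1 (-0.60), P-body replicate 2 (-0.71) or cytosol replicate 1 (-0.44). The HEL call was lost with library totals and without P-body replicate 2 (0.28), cytosol replicate 1 (0.25) or cytosol replicate 2 (0.28). CYTOR has a near-identical copy, MIR4435-2HG, with 195 CPM in HEL P-bodies and 106 CPM in HEL cytosol, and the sources used here do not say how reads were split between them.

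SNHG6, the second most counted member, was lower in MOLM-13 P-bodies, at 390 and 395 CPM against 579 and 555 CPM in cytosol. The log2 change was -0.53 ± 0.05 (SE, adjusted p = 1.73e-10) in MOLM-13. HEL P-bodies held 61.7 and 78.5 CPM, against 63.1 and 59.4 CPM in cytosol, and the fractions overlapped. The HEL log2 change of 0.19 ± 0.11 was not called, was called higher at 0.36 without HEL P-body replicate 1, and was called lower at -0.55 after the GC and length trend was removed. SNHG6, SNHG8 and ZFAS1 share this pattern of a MOLM-13 fall with no HEL call. SNHG8, host of SNORA24, was at 94.9 and 90.6 CPM in MOLM-13 P-bodies, against 123 and 131 CPM in cytosol, and at 41.8 and 48.5 CPM in HEL P-bodies, against 49.2 and 42.7 CPM in cytosol. ZFAS1, transcribed from the promoter region of ZNFX1 in the opposite direction, was at 99.4 and 104 CPM in MOLM-13 P-bodies, against 148 and 128 CPM in cytosol. In HEL ZFAS1 had 10.3 and 16.3 CPM in P-bodies, against 14.2 and 10.9 CPM in cytosol. Their log2 changes in MOLM-13 were -0.45 ± 0.07 and -0.44 ± 0.07. ZNFX1 itself was higher in P-bodies, by 0.21 in MOLM-13 and by 0.97 in HEL, so the change of ZFAS1 in MOLM-13 ran against that of the gene it overlaps.

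SNHG19 had the greatest fall of any member in MOLM-13. It lies between 2154797 and 2155358 on the minus strand of chromosome 16, encloses SNORD60 and has 342 bases of merged exon. It was at 4.65 and 5.79 CPM in MOLM-13 P-bodies, against 21.1 and 21.3 CPM in cytosol, and at 2.38 and 2.27 CPM in HEL P-bodies, against 2.03 and 1.67 CPM in cytosol. The log2 change was -2.03 ± 0.18 (SE, adjusted p = 3.51e-10) in MOLM-13 and 0.33 ± 0.31 without a call in HEL. With the GC and length trend removed the MOLM-13 change was -1.04 and still called, and the HEL change became a called 0.81. SNHG25, host of SNORD104 and with 278 bases the shortest member, was at 0.317 and 0.591 CPM in MOLM-13 P-bodies, against 2.35 and 1.44 CPM in cytosol. Its log2 change of -2.02 ± 0.53 lost its call without MOLM-13 P-body replicate 1 (-1.61), without MOLM-13 cytosol replicate 1 (-1.64) and with the GC and length trend removed (-0.74). It had too few counts to be tested in HEL, at 0.125 and 0.585 CPM in P-bodies, against 0.271 and 0.230 CPM in cytosol.

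SNHG9, host of SNORA78 and also short, had 6.24 and 5.55 CPM in MOLM-13 P-bodies, against 13.6 and 11.1 CPM in cytosol. HEL P-bodies had 3.76 and 7.02 CPM, against 4.74 and 3.57 CPM in cytosol, where the fractions overlapped. The MOLM-13 log2 change of -1.05 ± 0.20 (SE) became 0.22 without a call when the GC and length trend was removed, so its direction rests on that setting. SNHG3, host of the U17 snoRNA genes SNORA73A and SNORA73B, was lower in both lines. It was at 56.6 and 51.6 CPM in MOLM-13 P-bodies, against 102 and 100 CPM in cytosol, and at 45.6 and 48.5 CPM in HEL P-bodies, against 60.8 and 56.0 CPM in cytosol. The log2 changes were -0.91 ± 0.08 in MOLM-13 and -0.31 ± 0.10 in HEL, and the HEL call was lost with DESeq2 and without HEL P-body replicate 1 (-0.26), P-body replicate 2 (-0.27) or cytosol replicate 1 (-0.26). SNHG3 shares exon sequence with RCC1 on the same strand, which changed by -0.22 in MOLM-13 and by -0.23 in HEL. SNHG15, host of SNORA9, was at 125 and 117 CPM in MOLM-13 P-bodies, against 144 and 133 CPM in cytosol, and at 61.0 and 65.7 CPM in HEL P-bodies, against 61.4 and 60.3 CPM in cytosol. Its log2 change of -0.19 ± 0.06 in MOLM-13 lost its call with DESeq2, without MOLM-13 P-body replicate 2 (-0.13) and without MOLM-13 cytosol replicate 1 (-0.11), among 6 settings.

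SNHG16 was the only snoRNA host called higher in both lines with TMM scaling. It encloses the SNORD1 genes on chromosome 17 and was at 62.3 and 57.5 CPM in MOLM-13 P-bodies, against 40.6 and 39.6 CPM in cytosol. HEL P-bodies held 92.8 and 91.1 CPM, against 70.1 and 65.1 CPM in cytosol. The fractions did not overlap in either line, and the log2 changes of 0.58 ± 0.09 (SE) and 0.44 ± 0.09 shrank to 0.14 and 0.12 without calls when libraries were scaled by their totals. SNHG29 was called in HEL only. It encloses SNORD49A, SNORD49B and SNORD65 and was at 183 and 180 CPM in MOLM-13 P-bodies, against 188 and 206 CPM in cytosol, and at 77.4 and 84.1 CPM in HEL P-bodies, against 65.2 and 63.4 CPM in cytosol. The HEL log2 change was 0.33 ± 0.09, a call lost with library totals, and the MOLM-13 change was -0.12 ± 0.06. LRRC75A, antisense to SNHG29, fell by 0.74 in HEL. SNHG17, host of the SNORA71 genes, was at 68.2 and 69.0 CPM in MOLM-13 P-bodies, against 68.2 and 73.6 CPM in cytosol, and at 73.6 and 67.6 CPM in HEL P-bodies, against 59.2 and 60.6 CPM in cytosol. Its HEL change of 0.24 ± 0.09 (adjusted p = 0.0401) was called, turned to -0.09 with scaling by library totals, and was lost without HEL P-body replicate 1 (0.18), cytosol replicate 1 (0.21) or cytosol replicate 2 (0.25).

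**Figure D2:**
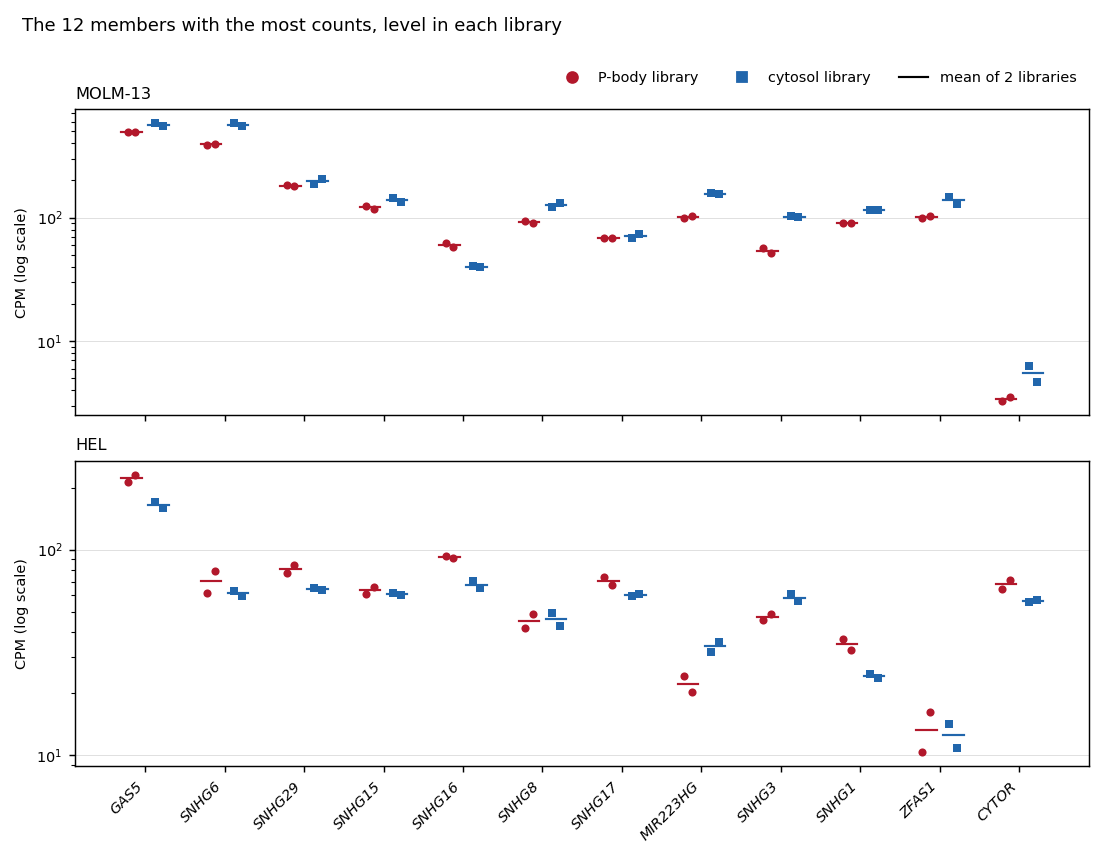
CPM on a log scale is shown for each library of the 12 members with the most counts, MOLM-13 above and HEL below, with P-body libraries as red circles to the left of cytosol libraries as blue squares and a line at each mean. P-body circles lie below the cytosol squares for SNHG6, SNHG8, SNHG3, SNHG1 and ZFAS1 in MOLM-13, and GAS5 and SNHG1 lie the other way round in HEL, where library totals shrink both changes (GAS5 to 0.11 and SNHG1 to 0.18) without calls.

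Among all 27 snoRNA hosts tested in MOLM-13, 16 fell (59.3%, against 28.5% of all tested genes), with a median log2 change of -0.39. Only SNHG16 rose (3.7%, against 32.4% of all genes). The others that fell were SNHG26, SNHG30, SNHG32 and DANCR, with log2 changes from -0.73 to -0.34. The DANCR call was lost without P-body replicate 2 (-0.27) or cytosol replicate 2 (-0.28), and the SNHG30 call without P-body replicate 2 (-0.30), cytosol replicate 1 (-0.39) or cytosol replicate 2 (-0.59). Of 27 tested in HEL, 9 rose (33.3%, close to the 27.5% of all genes) and 2 fell (7.41%, against 27.1%), with a median of 0.19. With library totals none rose and 7 fell. The remaining HEL rises were those of SNHG5 at 0.67 ± 0.19 (SE) and SNHG31 at 0.80 ± 0.31, and the falls were those of SNHG3 and SNHG20. The SNHG5 call was lost without HEL cytosol replicate 2 (0.58), the SNHG31 call without P-body replicate 1 (0.64), cytosol replicate 1 (0.88) or cytosol replicate 2 (0.70), and the SNHG20 call without P-body replicate 1 (-0.41), P-body replicate 2 (-0.41) or cytosol replicate 2 (-0.35). None of the 9 HEL rises held under every alternative. No call was made in either line for EPB41L4A-AS1, SNHG4, SNHG10, SNHG11, SNHG21 and MIR99AHG, whose log2 changes ran from -0.89 to 0.42 in MOLM-13 and from -0.01 to 0.28 in HEL.

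Many snoRNA hosts are transcribed from promoters of the terminal oligopyrimidine type, which they share with ribosomal protein genes. Transcripts from such promoters open with a C and a run of pyrimidines, and their translation is switched by the mTOR pathway through the protein LARP1. The RefSeq start of a gene (GRCh38.p14) was searched, on the transcribed strand only, for a run of at least 5 C or T bases that opened with C and began within 5 bases of the start. Of 24 snoRNA hosts with a promoter in the table, 12 held such a run (50%), as did 10 of 24 microRNA hosts (41.7%), against 21.1% of all 35116 promoters and 52 of 64 ribosomal protein genes (81.2%). Where the start base itself was a C that opened at least 5 C or T bases, as in SNHG12, whose run begins 1 base earlier, the shares were 6 of 24 snoRNA hosts (25.0%), 4.17% of microRNA hosts, 4.07% of all promoters and 67.2% of ribosomal protein genes. The first 5 sequences below hold the run at or 1 base before the start and belong to hosts with a called difference between the lines, and SNHG3 is shown as a host with no such run that fell in both. Each reads 5′ to 3′ from 20 bases before the start given in the RefSeq promoter table through the first 30 bases, with the run in capitals. For SNHG12 and ZFAS1 that start lies inside the RefSeq gene span, downstream of its outermost start.
SNHG12: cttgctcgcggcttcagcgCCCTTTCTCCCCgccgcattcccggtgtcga
SNHG19: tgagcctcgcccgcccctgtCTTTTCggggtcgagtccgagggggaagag
SNHG5: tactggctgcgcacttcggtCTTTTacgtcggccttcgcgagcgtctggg
SNHG7: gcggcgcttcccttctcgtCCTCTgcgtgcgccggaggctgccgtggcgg
ZFAS1: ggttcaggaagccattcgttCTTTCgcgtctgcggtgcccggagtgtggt
SNHG3: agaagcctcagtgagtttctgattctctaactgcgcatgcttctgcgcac
They lie at chr1:28581844-28581893 (minus strand), chr16:2155329-2155378 (minus), chr6:85678704-85678753 (minus), chr9:136728155-136728204 (minus), chr20:49278622-49278671 (plus) and chr1:28505923-28505972 (plus). In HEL, where 27.5% of all tested genes were higher and 27.1% lower, 6 of 12 tested snoRNA hosts with the run were higher and none lower. Their median log2 change was 0.29, and of 12 without the run 3 were higher and 2 lower, with a median of 0.05. With library totals, no snoRNA host was called higher in HEL, with or without the run, and 7 were lower. In MOLM-13, where 28.5% of all tested genes were lower and 32.4% higher, 7 of 11 with the run were lower and 1 higher (median -0.41). Of 12 without it there, 5 were lower and none higher (median -0.30). The difference between these small groups was not tested. GAS5, SNHG1 and SNHG29 held no such run, which says only that these letters are not in this window. They are the 3 hosts without the run that were higher in HEL. The GAS5 window, chr1:173869016-173869065, lies wholly upstream of the GENCODE start of GAS5 at 173868882, which was not searched.

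MicroRNA hosts were mostly lower in MOLM-13 P-bodies too. Of 21 tested hosts without a snoRNA, 11 fell (52.4%, against 28.5% of all genes) and 2 rose (9.52%, against 32.4%), with a median log2 change of -0.63. In HEL 7 of 24 rose (29.2%) and 6 fell (25%), close to the 27.5% and 27.1% of all genes, with a median of -0.18, and with library totals 5 rose and 9 fell. The let-7 family represses growth-promoting messages such as those of RAS and HMGA2, and its members share a seed, bases 2 to 8 of the mature strand, which pairs with targets. The mature strands from RefSeq are shown, with seeds in capitals, because 5 of the hosts enclose 8 microRNA genes with the seed GAGGUAG, and the microRNA 17 and 223 strands belong to the other named hosts.
hsa-let-7a-5p: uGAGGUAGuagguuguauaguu
hsa-let-7b-5p: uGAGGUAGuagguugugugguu
hsa-let-7i-5p: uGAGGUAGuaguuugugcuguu
hsa-miR-4500: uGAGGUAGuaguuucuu
hsa-miR-17-5p: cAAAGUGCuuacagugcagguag
hsa-miR-20a-5p: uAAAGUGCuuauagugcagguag
hsa-miR-223-3p: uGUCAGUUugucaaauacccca
The gene of let-7a lies in MIRLET7A1HG on chromosome 9 (94175962 to 94175983) and again in MIRLET7BHG on chromosome 22 (46112752 to 46112773), beside let-7b (46113691 to 46113712). The let-7i strand lies in MIRLET7IHG on chromosome 12 (62603691 to 62603712), and hsa-miR-4500 in MIR4500HG on chromosome 13 (87618671 to 87618687).

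MIRLET7A1HG was at 2.54 and 3.19 CPM in MOLM-13 P-bodies, against 8.21 and 6.26 CPM in cytosol, and at 1.06 and 0.844 CPM in HEL P-bodies, against 1.96 and 2.30 CPM in cytosol. It fell in both lines, with log2 changes of -1.33 ± 0.26 (SE) and -1.16 ± 0.36. The HEL call was lost with DESeq2 and without HEL P-body replicate 2 (-0.92) or cytosol replicate 2 (-1.04). MIRLET7IHG was at 1.27 and 1.06 CPM in MOLM-13 P-bodies, against 2.93 and 4.21 CPM in cytosol, a log2 change of -1.62 ± 0.37, and at 0.250 and 0.909 CPM in HEL P-bodies, against 1.49 and 0.518 CPM in cytosol, where the fractions overlapped. MIRLET7BHG had 12.4 and 10.6 CPM in MOLM-13 P-bodies, against 21.3 and 18.4 CPM in cytosol, and 2.50 and 2.92 CPM in HEL P-bodies, against 2.10 and 2.47 CPM in cytosol. Its MOLM-13 change of -0.78 ± 0.15 shrank to -0.11 without a call when the GC and length trend was removed. The antisense LINC02603 and LINC01465 had under 2 CPM in every group and PRR34-AS1, on the same strand as MIRLET7BHG, fell by 0.65 in MOLM-13. MIR99AHG, which encloses let-7c, was called in neither line. MIR4500HG went the other way in HEL, at 5.89 and 6.95 CPM in P-bodies, against 4.27 and 3.16 CPM in cytosol, a log2 change of 0.79 ± 0.23 that lost its call with library totals (0.47) and without HEL cytosol replicate 2 (0.58). In MOLM-13 it was at 0.317 and 0.354 CPM in P-bodies, against 1.47 and 0.361 CPM in cytosol, too few for a test within that line.

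MIR223HG, host of a microRNA of granulocytes and monocytes, was the microRNA host with the most counts. It was at 100 and 103 CPM in MOLM-13 P-bodies, against 157 and 154 CPM in cytosol, and at 24.4 and 20.3 CPM in HEL P-bodies, against 32.0 and 35.7 CPM in cytosol. The log2 changes of -0.62 ± 0.06 (SE) and -0.60 ± 0.13 were nearly equal, and both held their calls under every alternative. MIR23AHG, host of microRNAs 23a, 27a and 24, was at 14.3 and 15.0 CPM in MOLM-13 P-bodies, against 31.4 and 30.9 CPM in cytosol, and at 1.94 and 2.01 CPM in HEL P-bodies, against 3.93 and 4.03 CPM in cytosol. Its log2 changes were -1.09 ± 0.13 and -1.01 ± 0.27, and the HEL call was lost with DESeq2 and with the GC and length trend removed. MIR210HG, host of the hypoxia-induced microRNA 210, was at 5.29 and 4.96 CPM in MOLM-13 P-bodies, against 8.80 and 6.98 CPM in cytosol, and at 1.25 and 0.974 CPM in HEL P-bodies, against 1.96 and 2.59 CPM in cytosol. The MOLM-13 change of -0.61 ± 0.22 turned to 0.01 when the GC and length trend was removed, and lost its call without P-body replicate 2 (-0.54) or cytosol replicate 1 (-0.42). The HEL change of -1.03 ± 0.35 lost its call with the same trend removed, with DESeq2, and without P-body replicate 2 (-0.78) or cytosol replicate 2 (-0.82).

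MIR17HG carries the polycistron of microRNAs 17, 18a, 19a, 20a, 19b and 92a, a target of MYC. It was at 3.81 and 3.78 CPM in MOLM-13 P-bodies, against 8.06 and 8.18 CPM in cytosol, and at 1.82 and 2.34 CPM in HEL P-bodies, against 1.63 and 1.90 CPM in cytosol. The MOLM-13 fall of 1.10 ± 0.23 (SE, log2) was called under every alternative and the HEL change of 0.23 ± 0.33 was not called and was -0.56 with the GC and length trend removed. MIR3677HG was at 1.69 and 1.65 CPM in MOLM-13 P-bodies, against 4.40 and 3.13 CPM in cytosol, and at 0.376 and 0.844 CPM in HEL P-bodies, against 0.677 and 0.460 CPM in cytosol. Its MOLM-13 change of -1.15 ± 0.34 lost its call with DESeq2, with the GC and length trend removed (-0.16) and without cytosol replicate 1 (-0.87). RNPS1, on its other strand, was at 142 CPM in MOLM-13 P-bodies and 162 CPM in cytosol and changed by -0.19. The other MOLM-13 falls were those of MIR155HG at -0.81 ± 0.24, MIR22HG at -0.80 ± 0.34 and MIR503HG at -0.97 ± 0.28, each lost with DESeq2. The MIR155HG and MIR503HG calls were lost without P-body replicate 1 (-0.61 and -0.81), and that of MIR155HG also without cytosol replicate 2 (-0.68). The MIR22HG call was lost without P-body replicate 1 (-0.29), cytosol replicate 1 (-0.81) or cytosol replicate 2 (-0.73).

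**Figure D3:**
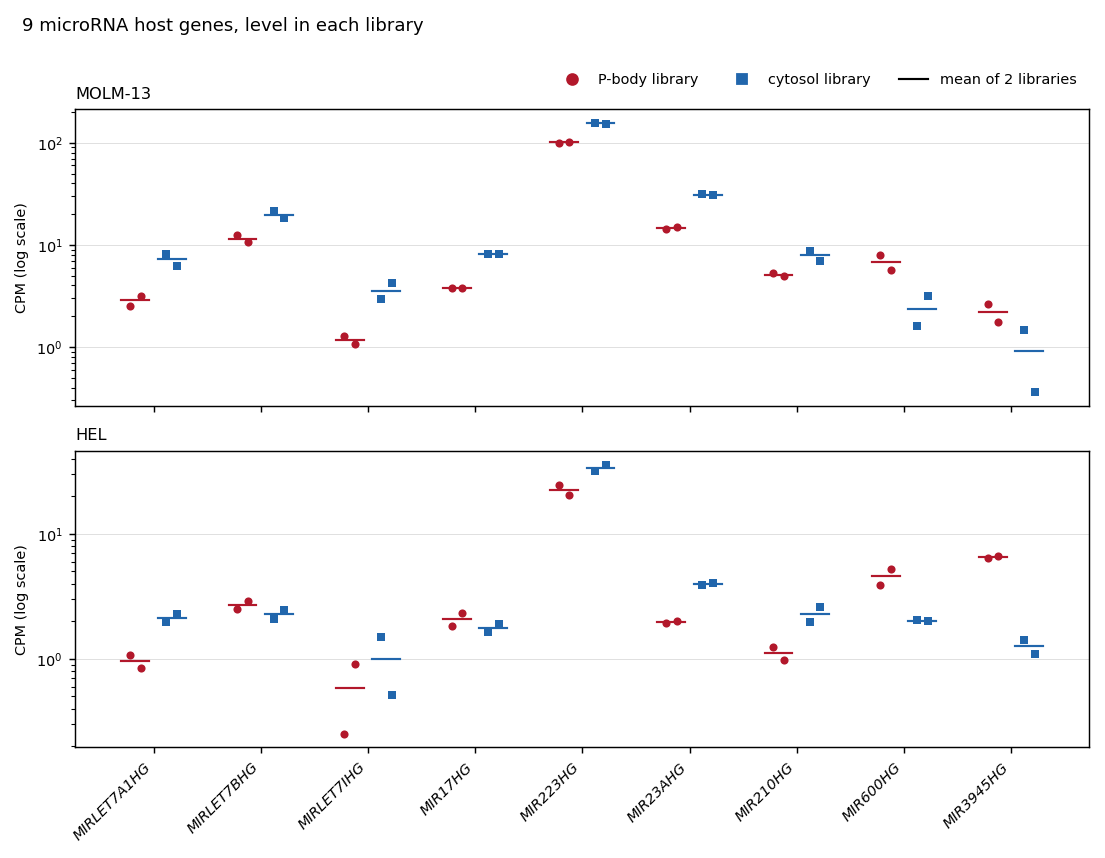
CPM on a log scale is shown in each library for 9 microRNA hosts, MOLM-13 above and HEL below, with P-body libraries (red circles) left of cytosol libraries (blue squares) and lines at the means. In MOLM-13 the first 7 genes have both circles below both squares, and MIR600HG and MIR3945HG have both circles above.

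Only MIR3945HG and MIR600HG were called higher in both lines among microRNA hosts. MIR3945HG was at 2.64 and 1.77 CPM in MOLM-13 P-bodies, against 1.47 and 0.361 CPM in cytosol, and at 6.39 and 6.69 CPM in HEL P-bodies, against 1.42 and 1.09 CPM in cytosol. The log2 changes were 1.35 ± 0.49 (SE) and 2.38 ± 0.27, the second of them the greatest rise of any member, and the MOLM-13 call was lost with library totals, with DESeq2, and without P-body replicate 1 (1.04) or cytosol replicate 2 (0.61). MIR600HG was at 8.04 and 5.67 CPM in MOLM-13 P-bodies, against 1.61 and 3.13 CPM in cytosol, and at 3.88 and 5.26 CPM in HEL P-bodies, against 2.03 and 2.01 CPM in cytosol. Its log2 changes of 1.49 ± 0.30 and 1.17 ± 0.28 moved with those of STRBP, a gene with exons on the same strand at the same place, which rose by 1.41 in MOLM-13 and by 1.87 in HEL. STRBP was at 269 CPM in MOLM-13 P-bodies and 101 CPM in cytosol, and at 463 CPM in HEL P-bodies and 127 CPM in cytosol, and the part of its reads in the MIR600HG values was not tested.

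The other HEL rises came from genes with little expression in MOLM-13. MIR3681HG was at 6.39 and 8.70 CPM in HEL P-bodies, against 2.91 and 1.5 CPM in cytosol, a log2 change of 1.79 ± 0.29 (SE). MIR4422HG was at 2.25 and 2.14 CPM in HEL P-bodies, against 1.08 and 0.460 CPM in cytosol, a change of 1.53 ± 0.42 that lost its call without HEL cytosol replicate 2 (1.01). MIR924HG was at 31.6 and 31.7 CPM in HEL P-bodies, against 15.7 and 12.3 CPM in cytosol, a change of 1.18 ± 0.14. MIR548XHG had a HEL change of 0.66 ± 0.26, a call lost under 7 alternatives, among them the removal of P-body replicate 2 (0.57) or cytosol replicate 2 (0.40). In MOLM-13 libraries, MIR3681HG had 0.211 and 0.236 CPM in P-bodies, against 0.147 and 0.481 CPM in cytosol, MIR4422HG had 0.106 and 0.118 CPM in P-bodies, against 0.293 and 0 CPM in cytosol, and MIR924HG had 0.317 and 0.236 CPM in P-bodies, against 0.147 and 0.361 CPM in cytosol. MIR4453HG had the greatest HEL fall, at 2.13 and 2.86 CPM in P-bodies, against 7.18 and 5.93 CPM in cytosol, a log2 change of -1.39 ± 0.25, and was at 0.952 and 0.945 CPM in MOLM-13 P-bodies, against 0.587 and 1.2 CPM in cytosol. MIR3667HG also fell in HEL, by 0.47 ± 0.15, a call lost without P-body replicate 2 (-0.26) or cytosol replicate 1 (-0.42). The hosts not called in any line where they were tested were MIR181A1HG, MIR181A2HG, MIR646HG, MIR762HG, MIR1915HG, MIR222HG, MIR34AHG, MIR3142HG and MIR3936HG.

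The difference between the lines was tested as an interaction, MOLM-13 minus HEL, in a fit of all 8 libraries. It was called lower for 22 of 58 members and higher for none. Lower calls made up 37.9% of members, against 13% of all tested genes, and no member was among the 9.15% of genes called higher. Of the 22, 18 were snoRNA hosts, out of 28 (64.3%), 3 were microRNA hosts, out of 29 (10.3%), and the last was CYTOR. The medians of these kinds were closer than their calls, at -0.71 over snoRNA hosts and -0.58 over microRNA hosts. MicroRNA hosts had lower levels, with a median in HEL cytosol of 0.580 CPM per kb, against 5.97 for snoRNA hosts. The part of level in the number of calls was not tested. The median difference was -0.71 over members and -0.11 over all genes, so part of each value is a common shift of this fit. Those medians were -0.44 and 0.19 without HEL P-body replicate 1, -0.53 and 0.17 without HEL cytosol replicate 1, and -0.30 and 0.14 without HEL cytosol replicate 2. With size factors taken within each line, a setting chosen after the data had been seen, the medians were -0.51 and 0.08, and 16 of the 22 calls remained. The HEL libraries also moved these calls, with 14 members called lower without HEL cytosol replicate 1 and 11 without HEL cytosol replicate 2.

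SNHG19 had the largest called difference, at -2.56 ± 0.33 (SE, adjusted p = 8.51e-06). SNHG9 followed among snoRNA hosts at -1.63 ± 0.36, then SNHG7 at -1.45 ± 0.19, SNHG1 at -1.05 ± 0.13 and SNHG12 at -0.94 ± 0.17. The most abundant members had differences of -0.82 ± 0.09 for GAS5 and -0.92 ± 0.12 for SNHG6. CYTOR differed by -1.14 ± 0.25. Removing the trend of the difference on GC content and length, also chosen after the data had been seen, left SNHG9 at -0.93 without a call (edgeR adjusted p = 0.0764) and SNHG6 at -0.60 with one. The other 6 of these snoRNA hosts, SNHG3 and CYTOR were called under every alternative run for the difference. The 3 microRNA hosts were MIR4500HG at -2.33 ± 0.78, MIR17HG at -1.52 ± 0.39 and MIRLET7BHG at -1.21 ± 0.30. The MIR4500HG call rests on few MOLM-13 counts and was lost without MOLM-13 P-body replicate 1 (-2.25), P-body replicate 2 (-2.40) or cytosol replicate 1 (-1.09) and without HEL cytosol replicate 2 (-1.83). Without HEL cytosol replicate 1 the calls of MIR17HG (-1.12) and MIRLET7BHG (-0.80) were lost. For MIR223HG the difference was -0.21 ± 0.13, for MIR23AHG -0.28 ± 0.27 and for SNHG16 -0.06 ± 0.13, and none of these was called.

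**Figure D4:**
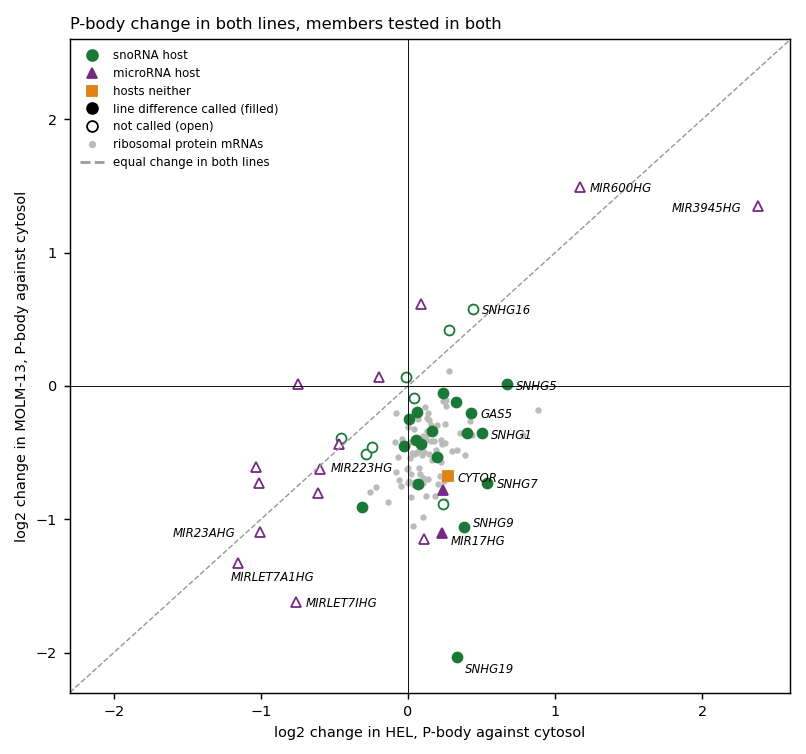
The log2 change in MOLM-13 (vertical) is plotted against that in HEL (horizontal) for the 43 members tested in both lines, with snoRNA hosts as circles, microRNA hosts as triangles and CYTOR as a square, filled where the difference between lines is called. Of the 43, 32 lie below the dashed line of equal change, MIR223HG, MIR23AHG and MIRLET7A1HG lie near it, and grey points are ribosomal protein messages.

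Genes tied to the members by function were read from the same fits. Cytosolic ribosomal protein messages fell in 75 of 80 cases and rose in none in MOLM-13 (median log2 change -0.50), and rose in 15 and fell in 2 in HEL (median 0.12), where scaling by library totals turned the count to 2 higher and 33 lower. Their difference between lines was called lower for 78 of 80, with a median of -0.82. Of 40 protein-coding genes that host snoRNAs in their introns, 30 fell and 6 rose in MOLM-13, and 4 fell and 12 rose in HEL (21 and 5 with library totals). Among these TPT1, the translationally controlled tumour protein, changed by -0.80 ± 0.04 (SE) in MOLM-13 and -0.04 ± 0.08 in HEL, and EEF2, the translocation factor of the ribosome, by -0.83 ± 0.04 and -0.81 ± 0.07. NCL, which encodes nucleolin, rose by 1.06 ± 0.04 and 0.82 ± 0.07. The median change of these 40 hosts was -0.47 in MOLM-13 and 0.11 in HEL. Many of these 40 hosts are ribosomal protein genes and stand in both lists. Outside the ribosomal list, EEF1B2, EEF2, PPAN, RACK1, TAF1D, TNPO2 and TPT1 fell in MOLM-13. EIF4A2, EIF4G2, HSPA9, NACA, NCL and WDR43 rose there, and the other falls were of ribosomal protein genes. The values of the noncoding snoRNA hosts, at -0.39 and 0.19, lie beside both lists, and whether the lists differ was not tested.

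Messages of the proteins that bind snoRNAs did not move as one. Of 18, 9 rose and 7 fell in MOLM-13, and 8 rose and 3 fell in HEL (6 and 9 with library totals). NOP58, a core protein of box C/D snoRNPs, rose by 1.73 ± 0.04 (SE) in MOLM-13 and by 1.49 ± 0.07 in HEL, whereas FBL, the methyltransferase fibrillarin, changed by -0.81 ± 0.05 and -0.23 ± 0.10, of which the first was called. DKC1, the pseudouridine synthase of box H/ACA snoRNPs, rose by 1.19 ± 0.04 and 0.65 ± 0.07. Of 14 messages for microRNA processing and Argonaute proteins, 10 rose and 2 fell in MOLM-13, and 8 rose and 4 fell in HEL, which library totals changed to 6 and 5 in MOLM-13 and 5 and 5 in HEL. DICER1, which cuts hairpins in the cytoplasm, rose by 1.70 ± 0.05 and 1.39 ± 0.08, and DGCR8, the partner of Drosha, fell by 0.42 ± 0.12 and 0.50 ± 0.13. For nonsense-mediated decay factors, 4 of 15 rose and 6 fell in MOLM-13, and 3 rose and 8 fell in HEL, which library totals changed to 0 and 9 in MOLM-13 and 2 and 11 in HEL. UPF1, the helicase at the centre of this decay, changed by -0.90 ± 0.08 and -2.06 ± 0.21.

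In cytosol, 34 of 58 members were higher in MOLM-13 than in HEL and 16 were lower, 58.6% and 27.6% of members, against 44.2% and 40.1% of all genes, of which 84.4% were called in either direction. The median log2 difference was 1.28 over members and 0.13 over all genes. SNHG6 was higher in MOLM-13 by 3.33 ± 0.09 (SE) on the log2 scale, ZFAS1 by 3.58 ± 0.15, SNHG19 by 3.64 ± 0.21, SNHG1 by 2.36 ± 0.09, MIR223HG by 2.32 ± 0.09 and GAS5 by 1.89 ± 0.06. On the other side were CYTOR, with a log2 difference of -3.25 ± 0.15, MIR924HG with -5.55 ± 0.36 and SNHG16 with -0.63 ± 0.09. MIR155HG, host of a microRNA of activated blood cells, was at 6.45 and 7.34 CPM in MOLM-13 cytosol, against 0 and 0.0575 CPM in HEL cytosol. MIR34AHG, host of a p53-induced microRNA, had no count in any HEL library and 3.81 and 4.09 CPM in MOLM-13 cytosol, at least 19.4-fold higher against a floor of 3 counts per library. MIR548XHG had no count in any MOLM-13 library and 3.79 and 2.59 CPM in HEL cytosol, so MOLM-13 was at least 7.26-fold lower. The ribosomal protein messages were all 80 higher in MOLM-13 cytosol, with a median log2 difference of 2.42. As nothing says that the replicates of a line were grown separately, these values compare the libraries of these lines only, and fewer cells with a transcript cannot be told apart from less of it per cell.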

How the data were processed

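The values are raw counts per gene, deposited by the authors as 1 table for each cell line. Per the labels' protocols, libraries of total RNA (miRNeasy Micro Kit) were prepared with NEBNext Ultra II. STAR, SAMtools 1.12, DESeq2 and the build GRCh38 appear in the submitters' processing notes. The sources used here do not give the counting tool, annotation release or strand setting. Symbols on more than 1 row (112 symbols, 1348 of 61544 rows, between 0.0193% and 0.0477% of counts) were left out.

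Within each line, genes passing edgeR's filterByExpr (smallest count 10) were tested, P-body against cytosol, with edgeR 4.0.16 (R 4.3.3) quasi-likelihood tests and Benjamini-Hochberg adjustment over all tested genes, with a threshold of 0.05. The difference between lines (MOLM-13 minus HEL) and the cytosolic difference came from 1 fit of all 8 libraries. The standard error (SE) is the log2 change divided by the square root of the test's F. CPM are TMM-scaled within each line. Gene positions, overlaps and lengths come from GENCODE release 29 (GRCh38), and small RNAs, gene starts and mature microRNAs from RefSeq (GRCh38.p14), where 49 members had a promoter. Alternatives were RLE size factors, library totals, DESeq2 1.42.0, no filter, a filter of 1 CPM in 2 libraries, a replicate block, removal of a spline trend (5 degrees of freedom) of log2 change on GC content and length, and leaving out each library, where a lone sample is assumed to vary like the other groups. The procedure was tested on simulated data.

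The members and gene lists were chosen with earlier results of these data known. Per-library values are given for the 12 members with the most counts, the 5 called highest and 5 called lowest in each line, those called in opposite directions, and the 8 largest called differences between lines.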

Additional observations from a re-analysis of the deposited data

Results flagged for a closer look

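For 22 members the P-body change differed between the lines by the interaction test (edgeR, adjusted p below 0.05), each of them lower in MOLM-13 than in HEL. The log2 differences, MOLM-13 minus HEL, were -2.56 for SNHG19, -2.33 for MIR4500HG, -1.63 for SNHG9, -1.52 for MIR17HG, -1.45 for SNHG7 and -1.21 for MIRLET7BHG. CYTOR had -1.14, SNHG1 -1.05, SNHG26 -0.996, SNHG12 -0.94, SNHG6 -0.92 and SNHG5 -0.85. GAS5 had -0.82, SNHG3 -0.79, ZFAS1 -0.72, DANCR -0.69, SNHG4 -0.65 and SNHG29 -0.64. The smallest were -0.62 for SNHG8, -0.48 for SNHG17, -0.45 for SNHG11 and -0.44 for SNHG15. In the same fit 13% of all tested genes were called lower and the median over all genes was -0.11. The MOLM-13 libraries had fewer counts than the HEL libraries, and the ribosomal protein messages differed in the same direction in 78 of 80 cases. The part of depth in these differences was not tested.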

How the results depend on the processing

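Size factors by RLE and the filter of 1 CPM in 2 libraries kept all counts of calls within 1.5 times. Scaling by library totals gave 6761 genes lower in HEL (4006 with TMM), 5 members higher and 16 lower there (17 and 8), and 2903 genes higher, 7154 lower and 1 member higher in MOLM-13 (4558, 4015 and 3). It turned the HEL changes of CYTOR to -0.053, SNHG11 to -0.32, SNHG15 to -0.27 and SNHG17 to -0.091, and the MOLM-13 change of SNHG5 to -0.42. DESeq2 called 2 members lower in HEL, 2623 genes and 18 members lower in MOLM-13 (4015 and 28 with edgeR), and 1466 genes lower in the difference between lines (2275). Size factors within lines, chosen after the data were seen, gave 2641 genes higher and 1399 lower in that difference. Removing the GC and length trend from the difference, also chosen then, lost the call of SNHG9 (-0.93) among the 22 members. Removing the GC and length trend left 2634 genes lower in MOLM-13. It turned GAS5 to -0.012, MIR3667HG to 0.020, SNHG31 to -0.025 and SNHG6 to -0.55 in HEL, and MIR210HG to 0.0087, SNHG17 to 0.20, SNHG5 to -0.56 and SNHG9 to 0.22 in MOLM-13. The causes of these changes were not tested.

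The replicate numbers did not pair the samples (correlation of same-numbered deviations -0.0033 in HEL and -0.013 in MOLM-13). A replicate block gave 15 members higher and 8 lower in HEL, 3 and 28 in MOLM-13, and 21 lower in the difference. The replicate block with the trend removed gave 2660 genes lower in MOLM-13, GAS5 -0.012, MIR3667HG 0.014, SNHG31 -0.035 and SNHG6 -0.56 in HEL, and SNHG17 0.20, SNHG5 -0.56 and SNHG9 0.21 in MOLM-13.

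Leaving out 1 library at a time gave 9 to 16 members higher and 3 to 7 lower in HEL, 2 to 4 higher and 22 to 25 lower in MOLM-13, and 0 to 1 higher and 11 to 20 lower in the difference. Over all genes the difference then had 1198 to 3441 higher and 880 to 2054 lower. Calls held under every alternative for 6 of 25 members in HEL, 16 of 31 in MOLM-13 and 8 of 22 in the difference. Low counts left 6 members in HEL and 9 in MOLM-13 without a test, mainly genes expressed in the other line. The part of depth in this was not tested.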
